A study of Rattus norvegicus with 196 samples.

Results

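Brain samples labelled BLA, for basolateral amygdala, were compared between rats given fluoxetine (FT) and rats given water (Sham). The label was not borne out by all marker transcripts, as described below, and BLA in the results stands for the libraries so labelled. The libraries were chosen by their label alone: 8 of the 196 samples of the series carried the brain region name BLA, 4 FT and 4 Sham, with the replicate numbers 1, 3, 4 and 5 in each group. The rats were male Long-Evans animals of Charles River stock, 2 months old at the start. FT animals received 18 mg/kg body weight of fluoxetine per day in their drinking water for 6 weeks, and Sham animals received water alone. Each sample was a pool of tissue punches from several animals, so that a replicate was a pool and not an animal, and the FT and Sham pools with one number were processed side by side and are called a pair here. RNA was read as the number of sequenced fragments on each of 29188 rat transcripts.

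The BLA is a cortex-like part of the amygdala, built mostly of glutamatergic projection neurons with a smaller number of GABAergic interneurons. It receives sensory input, holds associations between cues and threat or reward, and projects to the centromedial amygdala and the ventral striatum. Fluoxetine blocks the serotonin transporter, and the amygdala receives dense serotonergic input from the raphe.

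The 8 libraries held between 6606362 and 18622211 counts on transcripts. The 2 libraries of pair 3 were the smallest and stood apart from the other 6: the 50 most abundant transcripts took 73.1% of the counts in Sham and 70.0% in FT of this pair, against 25.9% to 34.6% elsewhere, and 1 transcript without a symbol, ENSRNOT00000069133, took 38.8% and 31.5%. Pairs 4 and 5 differed from pairs 1 and 3 in the share of fragments on no listed transcript. It was 39.5% to 50.4% in pairs 4 and 5 and 23.7% to 35.5% in pairs 1 and 3. Within pair 4 it was 39.5% in Sham and 50.4% in FT. The part of this share in the results was not tested. The Sham sample of pair 1 carries a note in the labels that its raw reads were damaged, and its counts were used as deposited. No 2 libraries were identical. Values are given in CPM, counts scaled to library size, after trimmed-mean (TMM) scaling of the 8 libraries, which equalises the bulk of the transcripts between libraries. Symbols were known for 1826 of the 13439 transcripts with enough counts to test, and all of these come from a list of transcripts that the study called in 2 or more regions, so a symbol is itself a sign of a change somewhere in these animals.

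The label was checked against marker transcripts in all 25 regions. The list for neurons of the striatum and the centromedial amygdala (CMA) was high in the BLA-labelled libraries: 7 of its 8 markers ranked among the first 5 regions by the median of the Sham samples, and these 7 were 3.91 to 18.4 times as high as in the libraries labelled CMA. PENK, the precursor of enkephalins, had its highest median here, 1812 CPM, against 172 CPM in CMA and 864 CPM in the shell of the nucleus accumbens (NaCshell). Adora2a, the adenosine receptor of indirect-pathway striatal neurons, was at 82.2 CPM against 4.47 CPM in CMA and 113 CPM in NaCshell, and DRD2, the D2 dopamine receptor, was at 52.6, 3.35 and 61.3 CPM. For these 3 transcripts the lowest BLA library lay above the highest CMA library. Of 14 markers of excitatory neurons 3 ranked among the first 5 regions, with Hpca, a calcium sensor of hippocampal and cortical neurons, second at 600 CPM, while Slc17a6, the vesicular glutamate transporter of thalamus and hypothalamus, was low, ranked 22 of 25, at 14.3 CPM. Of 7 markers of inhibitory neurons 3 ranked among the first 5 regions. Gad2, a GABA-synthesising enzyme, ranked 4 of 25, with 107 CPM against 42.7 CPM in CMA. This was the highest of the 7 ratios to CMA, which ran from 0.459 to 2.52. Some other excitatory markers were lower in BLA than in CMA. Nptxr was at 348 against 670 CPM and Nrgn at 251 against 439 CPM. Slc30a3 was at 42.2 against 119 CPM and Neurod1 at 3.47 against 21.1 CPM. Others were not lower, among them Hpca, CAMK2A and Hs3st2, at 2.70, 1.05 and 1.57 times the CMA median. Slc17a7, the transporter that defines cortical and BLA projection neurons, had no symbol among the transcripts and was not analysed here. The samples are therefore named by their label throughout. Whether the punches held striatal tissue or region labels were exchanged cannot be told from these values, so that a value for BLA or CMA, and a difference between them, belongs to the labels and may not belong to those nuclei. The part of the striatal markers in the results was not tested.

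No transcript passed the test in the BLA-labelled samples. With the pair as a block, edgeR's quasi-likelihood test called 0 of 13439 transcripts (0%) where a call needed an adjusted p no larger than 0.1 (Benjamini-Hochberg) and an absolute log2 fold change of 0.32 or more, and the smallest adjusted p was 0.226. At an unadjusted p below 0.05 there were 1835 transcripts (13.7%), 971 higher in FT (7.23%) and 864 lower (6.43%). DESeq2, the tool of the study, called, with the block kept, 265 of 12431 transcripts (2.13%), 123 higher (0.989%) and 142 lower (1.14%), with absolute log2 fold changes from 0.54 to 2.56. The 264 of these that edgeR tested had the same direction there and an unadjusted edgeR p below 0.05 in every case. The number of DESeq2 calls depended most on pairs 4 and 5. Without pair 1 DESeq2 called 337 transcripts, without pair 3 236, without pair 4 12 and without pair 5 6. Of these, 116, 142, 11 and 6 were among the 265. Within the pairs, FT lay above Sham in 4 of 4 for 118 of the 264 and below for 132. The shares over all transcripts tested were 12.8% and 9.84%, and a call favours a like sign in the pairs. Without the block both tools called 0. In what follows a transcript is said to be called where DESeq2 called it, which edgeR did for none with all pairs: for the called transcripts named here the adjusted p was 0.226 to 0.287 by edgeR and at most 0.0985 by DESeq2.

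The 4 pairs differed in their FT/Sham ratios. Within each pair, FT was divided by Sham on the log2 scale for the 13439 transcripts. The ratios of pairs 4 and 5 went together with r = 0.59 across transcripts, those of pairs 1 and 3 with r = 0.24 and those of pairs 1 and 5 with r = 0.10, and the other combinations had r between -0.05 and 0.01. These are descriptions over transcripts of the same libraries, which are not independent, and carry no test. The spread of the ratios was alike in the pairs, with SDs of 0.66, 0.75, 0.67 and 0.81 in pairs 1, 3, 4 and 5, and their medians lay between -0.01 and 0.03. All 4 pairs had one sign for 22.6% of the transcripts, 12.8% higher in FT and 9.84% lower. Complete separation of the groups was rare, with the 4 FT libraries above the 4 Sham libraries for 132 transcripts (0.982%) and below them for 58 (0.432%).

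**Figure D1:**
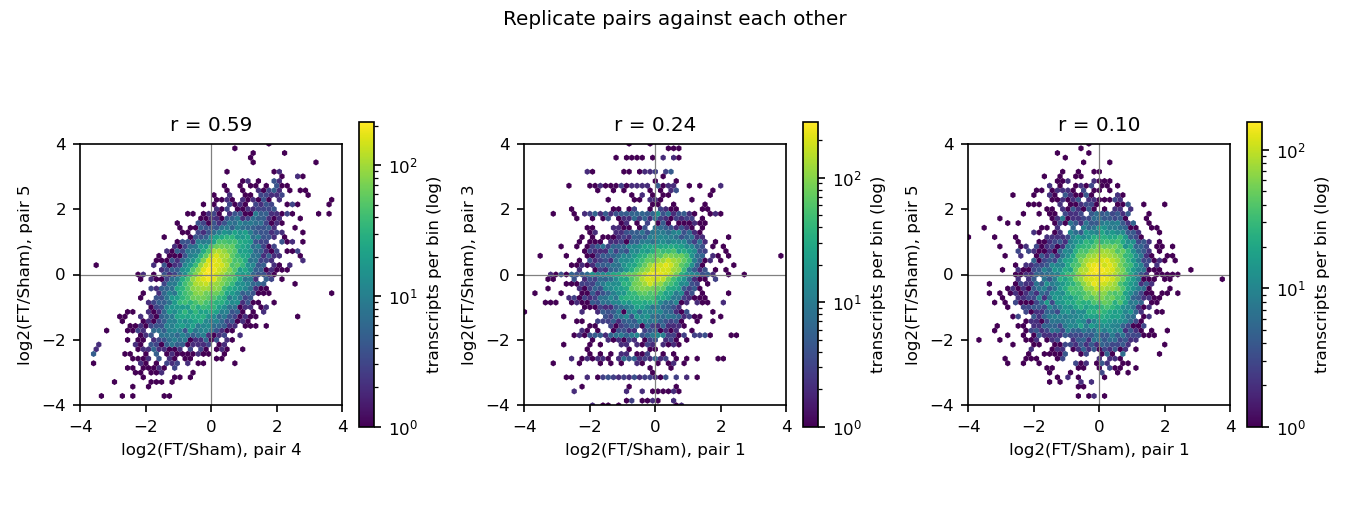
FT over Sham on the log2 scale for every tested transcript in one replicate pair against another, as binned counts of transcripts on a log colour scale; both axes run from -4 to 4. Pairs 4 and 5 form a cloud along the diagonal (r = 0.59), pairs 1 and 3 a rounder one (r = 0.24), and pairs 1 and 5 show almost no slope (r = 0.10).

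The transcripts with a symbol whose ratio had one sign in 4 of 4 pairs were ordered by edgeR's p, and the first 15 in each direction are described. This choice fixes their direction and favours small p values, so the counts below describe them and test nothing. DESeq2 called all 30. The 15 higher ones had fitted log2 fold changes of 0.79 to 1.31 and edgeR adjusted p values of 0.226 to 0.251, and the 15 lower ones had -2.30 to -0.89 with the same range of adjusted p. The FT and Sham libraries did not overlap for 5 of the higher and 2 of the lower transcripts, against 2.08% and 0.712% of all transcripts with a symbol. Tmem54, Prrt1, Slc6a11, Ndrg3 and a transcript without a symbol, ENSRNOT00000041868, were the transcripts DESeq2 called with all pairs and without each pair in turn.

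**Figure D2:**
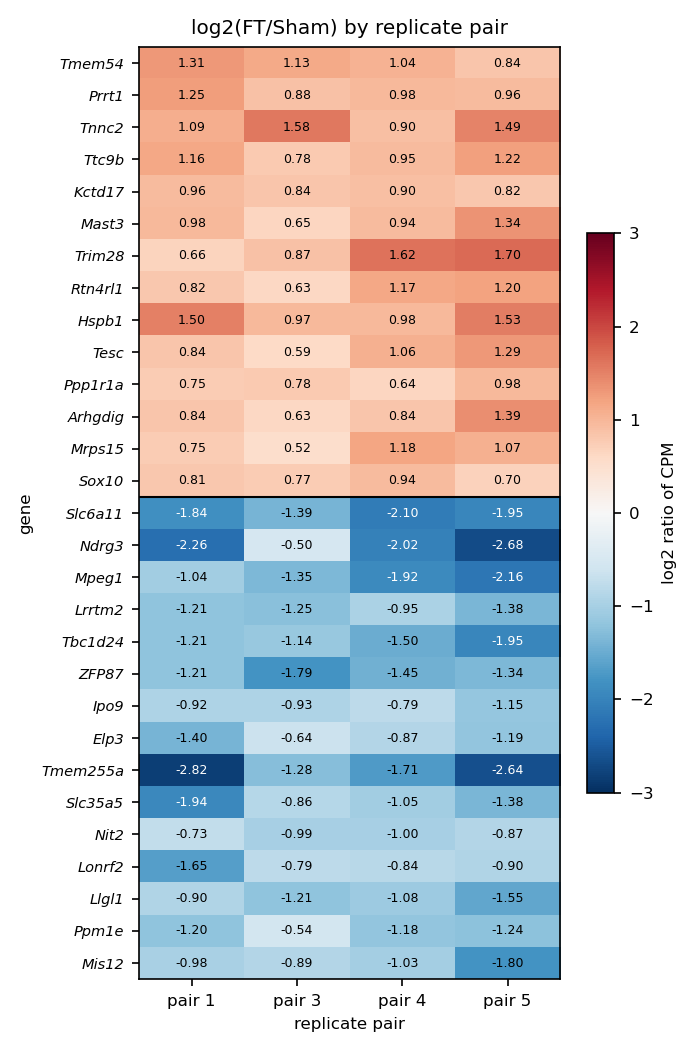
Log2 ratio of CPM, FT over Sham, in each of the 4 replicate pairs (columns) for 14 of the 15 higher and the 15 lower genes (rows), red above 0 and blue below, with the value in each cell. Signs are alike along each row by the choice of genes, while the size varies, as for Ndrg3, from -0.50 in pair 3 to -2.68 in pair 5.

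Slc6a11, which encodes the GABA transporter GAT-3 of astrocytes, had the smallest edgeR p of all transcripts. It was at 5.11, 10.3, 13.1 and 8.70 CPM in Sham and at 1.33, 3.86, 2.97 and 2.15 CPM in FT, in the order of pairs 1, 3, 4 and 5. Every FT library lay below every Sham library, with means of 9.31 ± 3.35 and 2.58 ± 1.09 CPM (SD, n = 4 each). The log2 fold change was -1.92 (SE 0.24), with an adjusted p of 0.226 by edgeR and 9.37e-06 by DESeq2, and from 0.000369 to 0.0976 by DESeq2 without each pair in turn. The log2 fold change was -1.0 in CMA and -0.66 in NaCshell. As in BLA, edgeR called it in neither region (adjusted p = 0.437 and 0.338). The 250 bases before the RefSeq start of this gene in the GRCr8 assembly, chr4:148853307-148853556 on the plus strand, are shown because the gene headed the order. The capitals mark GC boxes, GGGCGG on either strand, of which there were 4, beginning 156, 106, 74 and 35 bases before the start; 30.5% of 33469 RefSeq promoters of this length hold at least 1.

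Slc6a11: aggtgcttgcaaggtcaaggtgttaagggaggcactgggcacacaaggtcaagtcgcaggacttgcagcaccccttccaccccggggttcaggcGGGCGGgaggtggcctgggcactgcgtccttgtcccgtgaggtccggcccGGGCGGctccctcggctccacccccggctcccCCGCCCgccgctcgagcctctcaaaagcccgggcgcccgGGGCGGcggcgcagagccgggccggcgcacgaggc

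Ndrg3, an N-myc downstream regulated gene, was at 6.57, 6.53, 40.3 and 43.2 CPM in Sham and at 1.26, 4.57, 9.84 and 6.63 CPM in FT. The Sham libraries of pairs 4 and 5 stood well above those of pairs 1 and 3, and the groups overlapped. The log2 fold change was -2.04 (SE 0.33), with an adjusted p of 0.226 by edgeR and 4.39e-05 by DESeq2. Mat2a, the enzyme that makes S-adenosylmethionine, was not among the 15 but is given as a gene of interest, and had the same layout: 12.7, 34.0, 83.6 and 102 CPM in Sham, and 2.95, 30.2, 19.3 and 17.0 CPM in FT. Its log2 fold change was -1.79 (SE 0.37), with an adjusted p of 0.251 by edgeR and 0.00144 by DESeq2. In pair 3 the ratios of Ndrg3 and Mat2a were only -0.50 and -0.17, and without pair 3 edgeR called these 2 transcripts alone, both lower in FT, with adjusted p of 0.0725 each.

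The other lower transcripts of the 15 had varied known roles. Lrrtm2, a postsynaptic adhesion protein that binds neurexins, was at 6.84, 6.87, 22.8 and 21.0 CPM in Sham and 2.88, 2.81, 11.7 and 7.95 CPM in FT, with a log2 fold change of -1.21 (SE 0.21). Tbc1d24, a regulator of vesicle trafficking, was at 2.93, 11, 5.69 and 6.48 CPM against 1.19, 4.92, 1.92 and 1.58 CPM, with -1.54 (SE 0.27). Each FT library of both genes lay below the Sham library of its own pair. Ipo9 (-0.95), a nuclear import receptor, Elp3 (-1.05), the catalytic subunit of Elongator, Llgl1 (-1.22), a cell polarity protein, Ppm1e (-1.10), a phosphatase of calmodulin-dependent kinases, and Mis12 (-1.27), a kinetochore protein, also belonged here, and the groups did not overlap for Ppm1e. Slc35a5 (-1.36), Nit2 (-0.89), Lonrf2 (-1.06), ZFP87 (-1.45), Mpeg1 (-1.79) and Tmem255a (-2.30) made up the rest. Mpeg1, a pore-forming protein of microglia and macrophages, was at 1.87, 3.78, 8.46 and 7.78 CPM in Sham and 0.842, 1.41, 2.14 and 1.64 CPM in FT. Tmem255a had no count in FT of pair 1, where its ratio depends on the prior count.

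On the higher side, Tnnc2, the calcium-binding subunit of fast skeletal troponin, was at 14.1, 7.56, 17.9 and 12.5 CPM in Sham and 30.2, 22.8, 33.5 and 35.5 CPM in FT. The groups did not overlap, with means of 13 ± 4.30 and 30.5 ± 5.56 CPM (SD, n = 4 each). The log2 fold change was 1.26 (SE 0.19), with an adjusted p of 0.226 by edgeR and 0.000554 by DESeq2. Mast3, a microtubule-associated kinase that is abundant in striatal neurons, was at 136, 144, 139 and 106 CPM against 268, 226, 268 and 269 CPM, again without overlap, with a log2 fold change of 0.98 (SE 0.17). Trim28, a corepressor that recruits heterochromatin factors to zinc-finger proteins, was at 91.7, 62.2, 86.6 and 89.3 CPM in Sham and 145, 114, 267 and 291 CPM in FT. Its groups did not overlap either, but the ratio in pairs 4 and 5, 1.62 and 1.70, was above that in pairs 1 and 3, 0.66 and 0.87. Its log2 fold change was 1.22 (SE 0.22), with an adjusted p of 0.226 by edgeR and 0.00242 by DESeq2. Rtn4rl1, a Nogo receptor homologue, and Sox10, the transcription factor of the oligodendrocyte lineage, completed the transcripts without overlap, with log2 fold changes of 0.97 (SE 0.18) and 0.81 (SE 0.16).

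**Figure D3:**
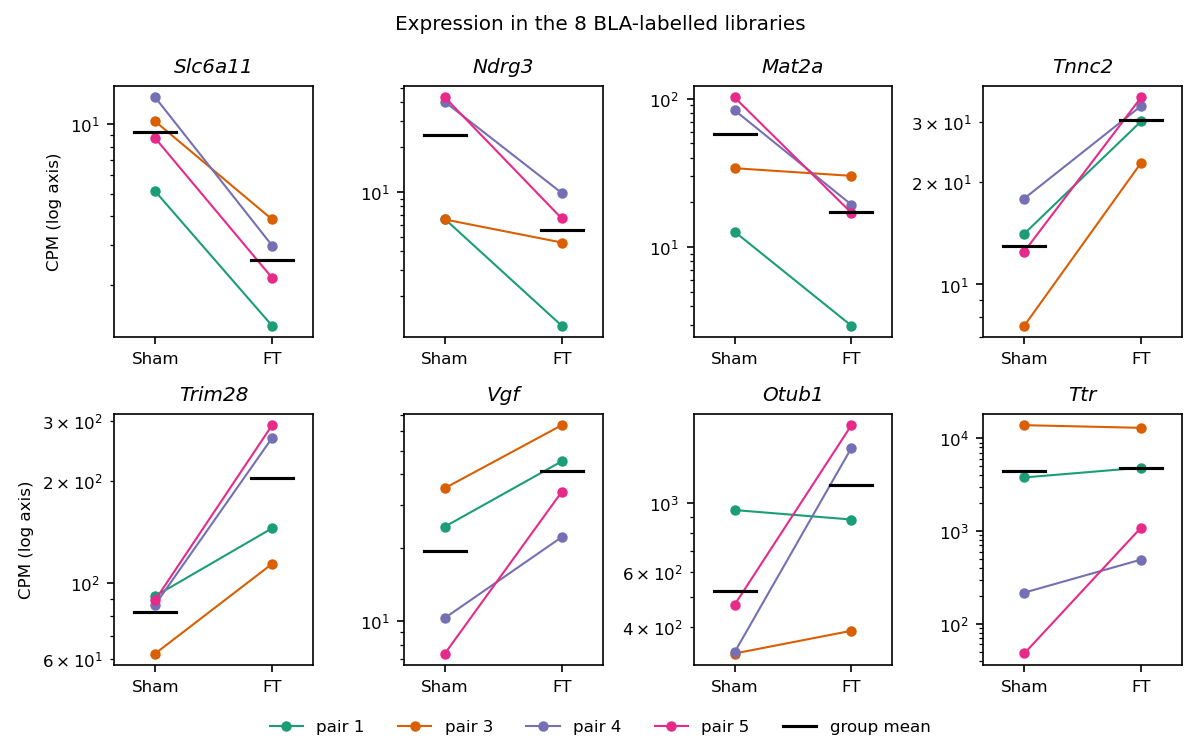
CPM on a log axis in the 4 Sham and 4 FT libraries for 8 genes, with lines joining the libraries of a pair and black bars at the group means. Slc6a11 lies lower in FT in all 4 pairs without overlap, Tnnc2 and Trim28 higher without overlap, while Otub1 differs mainly in pairs 4 and 5 and Ttr mainly between the pairs themselves.

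The transcripts with the most even ratios were Tmem54 (1.31, 1.13, 1.04 and 0.84 in pairs 1, 3, 4 and 5), Prrt1 (0.88 to 0.98 in pairs 3, 4 and 5 and above 1 in pair 1) and Kctd17 (0.96, 0.84, 0.90 and 0.82). Prrt1 is an auxiliary protein of AMPA receptors, and Kctd17 is a substrate adaptor of cullin-3 ligases. Prrt1 was at 65.1, 80.1, 23.3 and 29.0 CPM in Sham and 155, 147, 46.0 and 56.6 CPM in FT, so that the libraries of pairs 1 and 3 were the higher ones in both groups and the groups overlapped although each pair had a log2 ratio close to 1. Ttc9b (1.04), Arhgdig (0.93), an inhibitor of nucleotide release from small GTPases, Tesc (0.95), a calcium-binding partner of the sodium-proton exchanger, Ppp1r1a (0.79), an inhibitor of protein phosphatase 1, and Mrps15 (0.89), a mitochondrial ribosomal protein, were further members by log2 fold change. Of the transcripts without a symbol, ENSRNOT00000068437 (0.91) and ENSRNOT00000027452 (1.63) headed the higher side, and ENSRNOT00000071166 (-1.93) and ENSRNOT00000041868 (-1.31) the lower. The last was at 54.2, 30.9, 107 and 94.2 CPM in Sham and 18.4, 10.9, 65.9 and 33.1 CPM in FT, with an adjusted p from 0.00139 to 0.0994 in DESeq2 without each pair in turn.

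Hspb1, the small heat shock protein HSP27, and Vgf, the precursor of neuroendocrine peptides such as TLQP-21, were higher in FT in 4 of 4 pairs. Vgf was not among the 30 transcripts above and is given from the list of neuropeptides. Hspb1 was at 4.40, 14.4, 1.02 and 0.920 CPM in Sham and 12.6, 28.5, 2.14 and 2.90 CPM in FT, with a log2 fold change of 1.31 (SE 0.24) and an adjusted p of 0.226 by edgeR and 0.00579 by DESeq2. Vgf was at 24.4, 35.1, 10.3 and 7.36 CPM in Sham and 45.2, 63.6, 22.1 and 33.9 CPM in FT, with 1.26 (SE 0.25) and an adjusted p of 0.251 by edgeR and 0.00863 by DESeq2. The groups overlapped because the libraries of pairs 1 and 3 were the higher ones in both. Their upstream sequences from GRCr8 are shown because each holds an element known from inducible genes. In Hspb1, chr12:26432302-26432551 on the minus strand, the capitals mark GAANNTTC, the paired unit bound by heat shock factor, which begins 129 and 109 bases before the start and is found in 7.23% of promoters. In Vgf, chr12:25277021-25277270 on the minus strand, they mark the cAMP response element TGACGTCA, 90 bases before the start and in 1.59% of promoters. A match is a description of these letters and not of binding, and the reads were counted on rn5, another assembly. Of the 30 genes, which do not include Vgf, 22 had a promoter entry, and among these the heat shock unit was found in Hspb1 alone and the cAMP element in Lrrtm2 alone. A GC box was found in 8 of the 9 higher and 7 of the 13 lower genes with an entry, Slc6a11 among them. The share over all promoters was 30.5%, and the difference was not tested. That share covers all RefSeq promoters, also those of genes not tested here, so it is not a matched background.

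Hspb1: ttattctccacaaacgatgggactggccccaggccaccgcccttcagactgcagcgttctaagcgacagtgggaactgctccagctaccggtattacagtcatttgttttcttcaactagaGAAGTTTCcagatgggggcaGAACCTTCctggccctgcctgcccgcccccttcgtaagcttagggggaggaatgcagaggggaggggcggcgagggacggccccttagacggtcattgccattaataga
Vgf: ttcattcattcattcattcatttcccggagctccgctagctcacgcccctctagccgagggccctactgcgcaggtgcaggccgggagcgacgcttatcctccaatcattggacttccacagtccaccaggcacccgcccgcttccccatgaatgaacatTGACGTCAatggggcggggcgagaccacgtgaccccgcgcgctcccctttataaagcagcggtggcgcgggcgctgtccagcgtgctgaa

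Other transcripts differed mainly in pairs 4 and 5. Otub1, a deubiquitinase, was at 947, 329, 332 and 471 CPM in Sham and 883, 389, 1497 and 1770.2 CPM in FT, with pair ratios of -0.10, 0.24, 2.17 and 1.91. The log2 fold change was 1.06 (SE 0.41), and it was called neither by edgeR (adjusted p = 0.321) nor by DESeq2 (adjusted p = 0.170), although DESeq2 called it without pair 1 or without pair 3 (adjusted p = 0.00748 and 0.0422). Cirbp, the cold-inducible RNA-binding protein, had ratios of -0.57, -0.19, 2.76 and 3.06, with 519 and 768 CPM in the FT libraries of pairs 4 and 5 and between 68.2 and 139 CPM in the other 6. It was not called, with an adjusted p of 0.422 by edgeR and 0.552 by DESeq2. In Cds2, a CDP-diacylglycerol synthase, the ratios were 0.15, -0.15, -2.67 and -3.77. Cds2 was at 0.622, 74.6, 4.57 and 4.27 CPM in Sham and at 0.702, 67.1, 0.605 and 0.189 CPM in FT. Its levels were thus low outside pair 3. In Napb, a SNAP protein of membrane fusion, the ratios were -0.85, -0.24, -1.88 and -2.15. Napb was called by DESeq2 (log2 fold change -1.32, adjusted p = 0.251 by edgeR and 0.0196 by DESeq2), and Cds2 was not (-1.60, adjusted p = 0.408 by DESeq2).

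Other genes were followed for their known part in antidepressant action or glial function. Ntrk2, the BDNF receptor TrkB, was at 168, 133, 183 and 188 CPM in Sham and 163, 127, 100.5 and 88.9 CPM in FT, and its log2 fold change of -0.52 (SE 0.22) was not called by edgeR (adjusted p = 0.353) or DESeq2 (adjusted p = 0.338). Sirt2, a deacetylase of myelinating cells, had -0.52 (SE 0.28) and ratios of -0.01, 0.03, -0.47 and -1.65. Apoe, the lipid carrier of astrocytes, had 0.40 (SE 0.29), with 13015 and 17271 CPM in pair 3 against 173 to 999.9 CPM in the other 6 libraries. Of the serotonin system only Htr1a, the 5-HT1A receptor, had a symbol, and its 1 to 14 counts per library were too few to test. Fos, the activity marker, was at 11.3, 4.81, 9.39 and 11.5 CPM in Sham and 19.3, 13.7, 19.2 and 12.7 CPM in FT. All FT libraries lay above the Sham ones, but the ratio was 0.14 in pair 5, and the log2 fold change of 0.81 (SE 0.25) was not called (adjusted p = 0.265 by edgeR and 0.150 by DESeq2). The other immediate early gene with a symbol, Cyr61, had ratios of -0.30, -0.85, 1.38 and 2.77 and was not called either (log2 fold change 1.16, SE 0.56, adjusted p = 0.398 by edgeR and 0.506 by DESeq2).

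Gene lists were then read against the background. Of the 1826 transcripts with a symbol, 59.8% had a fitted log2 fold change above 0 and their median was 0.25, against 50.6% and 0.01 for all 13439. An unadjusted edgeR p below 0.05 was met by 25.7% of those with a symbol on the higher side and 16.3% on the lower. DESeq2 called 5.79% and 5.52%. In 4 of 4 pairs 24.9% were higher in FT and 14.0% lower. A list must be set beside these shares, and edgeR called no member of any list. Only list members with a symbol could be tested, so the counts below leave out the other genes of each list.

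Nuclear genes of mitochondria had mostly positive log2 fold changes. Of 37 listed genes of complex I, the NADH dehydrogenase of the respiratory chain, 15 had a symbol and were tested. All 15 had a log2 fold change above 0, with a median of 0.41. Of these, 2 were at an unadjusted p below 0.05 and 1 was called by DESeq2. That was Ndufb10, at 349, 427, 246 and 296 CPM in Sham and 561, 643, 353 and 489 CPM in FT (log2 fold change 0.63, SE 0.16, adjusted p = 0.255 by edgeR and 0.0415 by DESeq2). The median ratio of complex I was 0.15, -0.03, 0.52 and 0.99 in pairs 1, 3, 4 and 5, so that pair 3 showed none of it. Of 27 transcripts of mitochondrial ribosomal proteins, which translate the mitochondrial messages, 25 were above 0, the median was 0.37 and 10 had an unadjusted p below 0.05, all higher. DESeq2 called 4, Mrps15, Mrpl12, Mrps24 and Mrps34, with log2 fold changes of 0.89, 0.70, 0.78 and 0.66. In complexes II to V 13 of 18 were above 0, with a median of 0.25, equal to the background, and none was called. Genes of the mitochondrial DNA pointed the other way, with 7 of 8 below 0 and a median of -0.34. MT-ND5 was called lower by DESeq2 at -0.65 (SE 0.22, adjusted p = 0.287 by edgeR and 0.0255 by DESeq2), with ratios of -0.75, -0.61, -0.72 and -0.52.

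Genes of synapses and excitability had mostly negative log2 fold changes. Of 22 genes of synaptic vesicles and release, 16 were below 0 with a median of -0.32, and DESeq2 called 4 lower: Napb, Apba1 (-1.07), Amph (-1.45) and Syt11 (-1.02). Syp, synaptophysin, a main membrane protein of the vesicle, was the exception that DESeq2 called higher, at 1086, 899, 637 and 472 CPM in Sham and 2139, 1392, 1035 and 942 CPM in FT (log2 fold change 0.83, SE 0.20, adjusted p = 0.251 by edgeR and 0.00565 by DESeq2). Amph, amphiphysin, an endocytic adaptor, had ratios of -1.84, 0.02, -1.92 and -1.86. Of 18 ion channel genes 13 were below 0 with a median of -0.33. DESeq2 called 1 higher and 4 lower, the lower ones being Kcnj10 (-2.54), Kcnj3 (-0.91), Scn2b (-1.32) and Scn8a (-0.83). Kcnj10, the potassium channel Kir4.1 of astrocytes, was at 0.178, 4.47, 5.45 and 4.14 CPM in Sham and 0.140, 2.46, 0.550 and 0.316 CPM in FT, and was near 0 in both libraries of pair 1. The medians of the synaptic list in pairs 1, 3, 4 and 5 were -0.07, 0.13, -0.39 and -1.21, and those of the channel list -0.05, 0.11, -0.77 and -1.07.

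Receptor genes were mostly below 0. Of 14 listed GABA-A receptor subunits 5 were tested, and 4 of these were below 0. DESeq2 called Gabrb2, a beta subunit, which was at 3.69, 9.28, 16.1 and 18.4 CPM in Sham and 1.90, 4.57, 5.33 and 2.21 CPM in FT (log2 fold change -1.71, SE 0.37, adjusted p = 0.251 by edgeR and 0.00664 by DESeq2). The others had -0.95 (Gabrg1), -0.56 (Gabra3), -0.41 (Gabrb1) and 0.36 (Gabrd). Of 24 listed glutamate receptor genes 7 were tested, and 6 of these were below 0. The exception was the one DESeq2 called: Grin2c, an NMDA receptor subunit, at 9.95, 14.1, 7.10 and 8.45 CPM in Sham and 18.2, 21.8, 10.8 and 14.6 CPM in FT (0.73, SE 0.18, adjusted p = 0.251 by edgeR and 0.0898 by DESeq2). Among 13 receptors of growth factors, Wnt and Notch signalling, 9 were below 0 with a median of -0.52, and DESeq2 called Bmpr1a, a BMP receptor, lower at -0.89. In pairs 1, 3, 4 and 5 the medians of the GABA-A list were -0.19, 0.00, -0.79 and -1.05. Those of the glutamate receptor list were -0.79, 0.15, -0.44 and -0.58, and those of the growth factor, Wnt and Notch list -0.04, 0.03, -0.81 and -1.08.

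**Figure D4:**
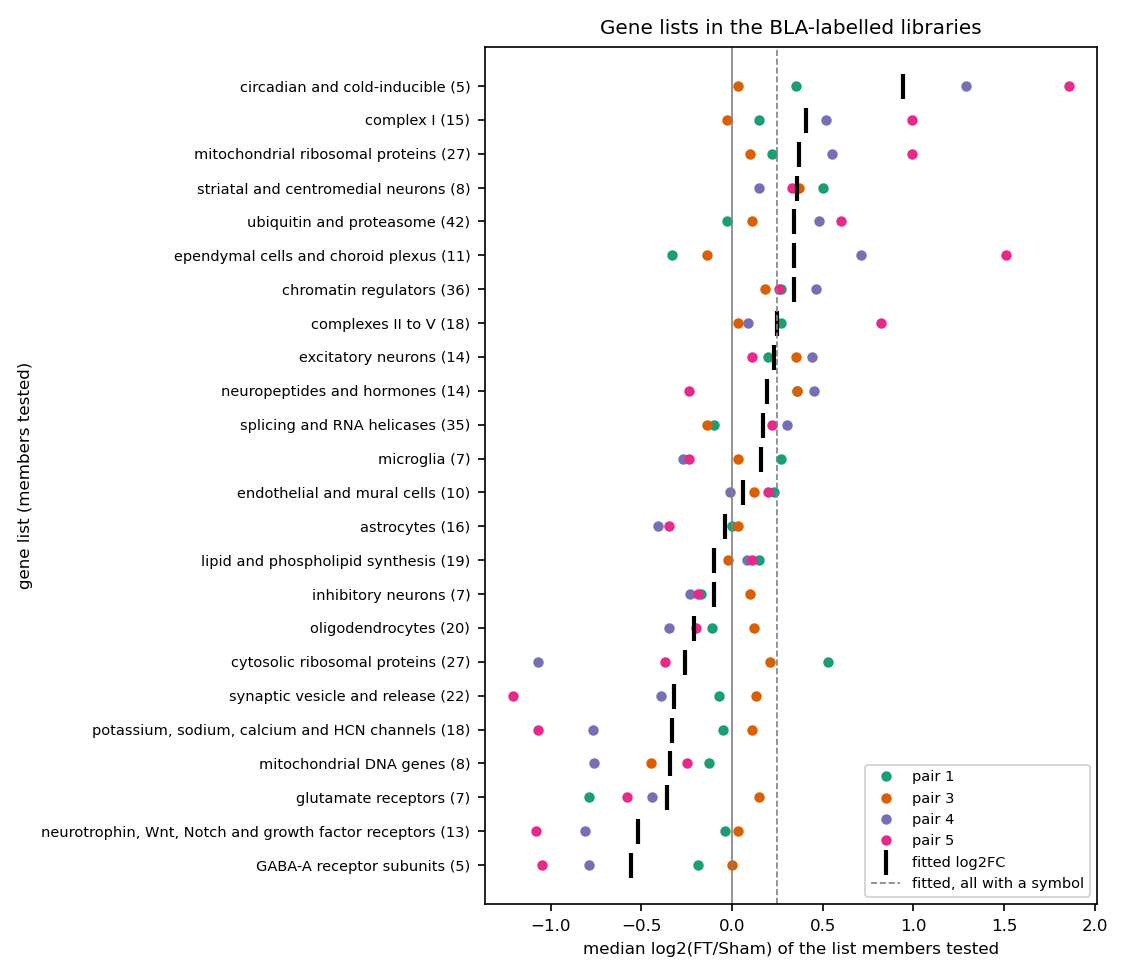
Median log2 ratio of FT to Sham of the tested members of each list with 5 or more of them (rows, number of members in brackets), for each replicate pair (coloured points) and for the fitted log2 fold change (black bars); the dashed line is the fitted median of all transcripts with a symbol, 0.25. For many lists pairs 4 and 5 lie far from 0 and pairs 1 and 3 near it, as for ion channels (-0.77 and -1.07 against -0.05 and 0.11).

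Regulators of chromatin, RNA and protein turnover were mixed. Of 36 chromatin regulators 23 were above 0 with a median of 0.34. An unadjusted p below 0.05 was met by 13 on the higher side and 3 on the lower. In 4 of 4 pairs 11 were higher in FT, beside 24.9% of all transcripts with a symbol. DESeq2 called Trim28, Smarcd3 (0.63), Cbx6 (0.63) and Sap30l (1.31) higher and Sap130 (-1.67) lower. Sap30l and Sap130 are both components of Sin3 deacetylase complexes. Of 42 genes of the ubiquitin and proteasome system 28 were above 0, with Tceb2 (0.79), or elongin B, and Ube2j2 (0.70), a conjugating enzyme of the endoplasmic reticulum, called higher and Ube2g2 (-1.51), Itch (-1.0) and Skp1 (-0.63) called lower. Splicing factors and helicases were split evenly, 18 of 35 above 0, with Cwc25 (0.70) called higher and Ddx17 (-0.81) lower. Of 27 cytosolic ribosomal protein transcripts 10 were above 0 and none was called, and since many of these genes have near-identical copies their counts are uncertain. Lipid synthesis genes were divided, with Scap (0.69) and Agpat3 (0.65) among 3 called higher and Elovl5 (-1.77) and Lpcat3 (-0.88) among 3 called lower.

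Dbp, a clock-controlled transcription factor, was at 102, 78, 66.3 and 58.7 CPM in Sham and 172, 99.8, 163 and 213 CPM in FT, with a log2 fold change of 1.07 (SE 0.25) and an adjusted p of 0.251 by edgeR and 0.0318 by DESeq2. It was the one call among 5 circadian and cold-inducible genes. Of 3 genes of the adrenal steroid axis, the chaperone Fkbp4 had 0.55 (SE 0.15, ratios of 0.68, 0.56, 0.34 and 0.62), the chaperone Ptges3 0.42 and the mineralocorticoid receptor Nr3c2 -0.76, and none was called. Of 14 neuropeptide and hormone genes 8 were above 0, and Vgf was the one call. Hcrt, orexin, which is made in the lateral hypothalamus, had 0 to 45 counts per library and 2.00 on the log2 scale without a call.

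Markers of cell types were followed because a punch can hold more or fewer cells of a type, which cannot be told apart from less RNA per cell in bulk tissue. Excitatory neuron markers had 9 of 14 above 0 and a median of 0.23. Nrgn, neurogranin, a postsynaptic calmodulin-binding protein of forebrain projection neurons, was called higher by DESeq2: 322, 1250.1, 48.0 and 154 CPM in Sham and 835, 2518, 177 and 219 CPM in FT (log2 fold change 1.19, SE 0.25, adjusted p = 0.251 by edgeR and 0.00278 by DESeq2). Hs3st2, a heparan sulphate enzyme, was called higher as well (0.84). CAMK2A, the alpha subunit of the calmodulin-dependent kinase of the same neurons, was called lower at -0.90 (SE 0.26, adjusted p = 0.264 by edgeR and 0.0833 by DESeq2). Striatal markers had 6 of 8 above 0 and a median of 0.36, and their summed level ran from 1209 to 3332 CPM in Sham and from 1406 to 4399 CPM in FT. DESeq2 called Syndig1l (0.77) alone among them, while PENK had ratios of 0.33, 0.37, 0.25 and -1.18. Inhibitory neuron markers had 3 of 7 above 0 and no call. Gad2, a GABA-synthesising enzyme, had -0.57 (SE 0.21, adjusted p = 0.313 by edgeR).

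Glial and vascular markers were split in sign. Of 20 oligodendrocyte markers 8 were above 0, and DESeq2 called 2 higher, Sox10 among them, and 1 lower, Ermn (-0.61). Of 16 astrocyte markers 8 were above 0, and the 2 calls, Slc6a11 and Kcnj10, were both lower. Their list summed to 1406 to 17802 CPM in Sham and 963 to 23814 CPM in FT, with the highest library of each group in pair 3. Of 7 microglial markers 4 were above 0, Mpeg1 was the one call, and the sums were 68.3 to 110 CPM in Sham and 52.4 to 132 CPM in FT. Of 10 endothelial and mural markers 5 were above 0. Myh11, the myosin of smooth muscle, was called higher, at 5.86, 5.84, 6.13 and 6.98 CPM in Sham and 8.84, 11.2, 13.7 and 16.0 CPM in FT, without overlap (0.98, SE 0.21, adjusted p = 0.251 by edgeR and 0.0404 by DESeq2), and Cav1, the coat protein of caveolae, was called lower (-0.73). The 2 haemoglobin transcripts had -0.40 and 0.21.

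The choroid plexus transcript Ttr, the thyroid hormone carrier of cerebrospinal fluid, varied widely between pairs: 3788, 13872, 217 and 47.9 CPM in Sham and 4826, 12981, 493 and 1092 CPM in FT. The log2 fold change of 1.30 (SE 0.72) was not called (adjusted p = 0.445 by edgeR). Of the 11 markers of ependymal cells and choroid plexus 7 were above 0, and their summed level ran from 136 to 14002 CPM in Sham and from 617 to 13102 CPM in FT. The part of this list in the ratios of pair 5, where Ttr differed by 4.51 on the log2 scale, was not tested.

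The response was compared with those of CMA, the neighbouring part of the amygdala, and NaCshell, a region of the ventral striatum. The 3 regions come from the same series of pools by number, and each had 4 FT and 4 Sham libraries. The same edgeR test called 1 transcript in CMA alone (0.00742%) and 1 in NaCshell alone (0.00745%), and DESeq2 called 327 of 6977 (4.69%) and 948 of 12967 (7.31%). A test of the difference of responses, BLA minus CMA, called 0 of 14497 transcripts (0%), with 288 (1.99%) at an unadjusted p below 0.05, and BLA minus NaCshell called 0 of 14465 (0%), with 589 (4.07%). DESeq2 also called 0 in both. Both edgeR shares were smaller than chance alone gives at this p, so this edgeR test was conservative. It held no treatment effect common to the regions for pools of one number. The 0 calls therefore do not show that the responses of the regions were alike. With a treatment effect shared by both regions for each replicate number, edgeR called 0 for BLA minus CMA and 4 for BLA minus NaCshell, which are named below.

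For the 15 higher and 15 lower genes the log2 fold change had the same sign in all 3 regions, but these genes owe their symbols to calls in 2 or more regions so that a like sign was favoured. The higher ones ran from 0.27 to 0.98 in CMA and from 0.25 to 1.70 in NaCshell, and the lower ones from -1.67 to -0.10 and from -1.61 to -0.19. Hspb1 had the smallest p of the 30 for a difference from CMA, at 1.31 in BLA against 0.27, a difference of 1.06 (SE 0.31, unadjusted p = 0.00564, adjusted p = 1.00 by edgeR). Tnnc2 was at 1.26 in BLA, 0.49 in CMA and 1.70 in NaCshell, with a difference from CMA of 0.78 (SE 0.25) that did not pass either. Slc6a11 was further below 0 in BLA, by -0.90 (SE 0.56) against CMA and -1.20 (SE 0.40) against NaCshell, and neither passed. For Ttr, at 1.30 in BLA without a call, the log2 fold change was -2.26 in CMA and -2.68 in NaCshell, where DESeq2 called it lower (adjusted p = 0.00395 and 4.38e-06), and the difference of BLA from NaCshell was 4.05 (SE 1.03, unadjusted p = 0.00192, adjusted p = 0.949 by edgeR). In the fit with the shared treatment effect the difference of Ttr from NaCshell was 4.20 (SE 0.48) and passed (adjusted p = 0.0255), with Kcnj13, a potassium channel of choroid plexus, at 2.70 (SE 0.35, adjusted p = 0.0274), ENSRNOT00000072447 and ENSRNOT00000013502.

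**Figure D5:**
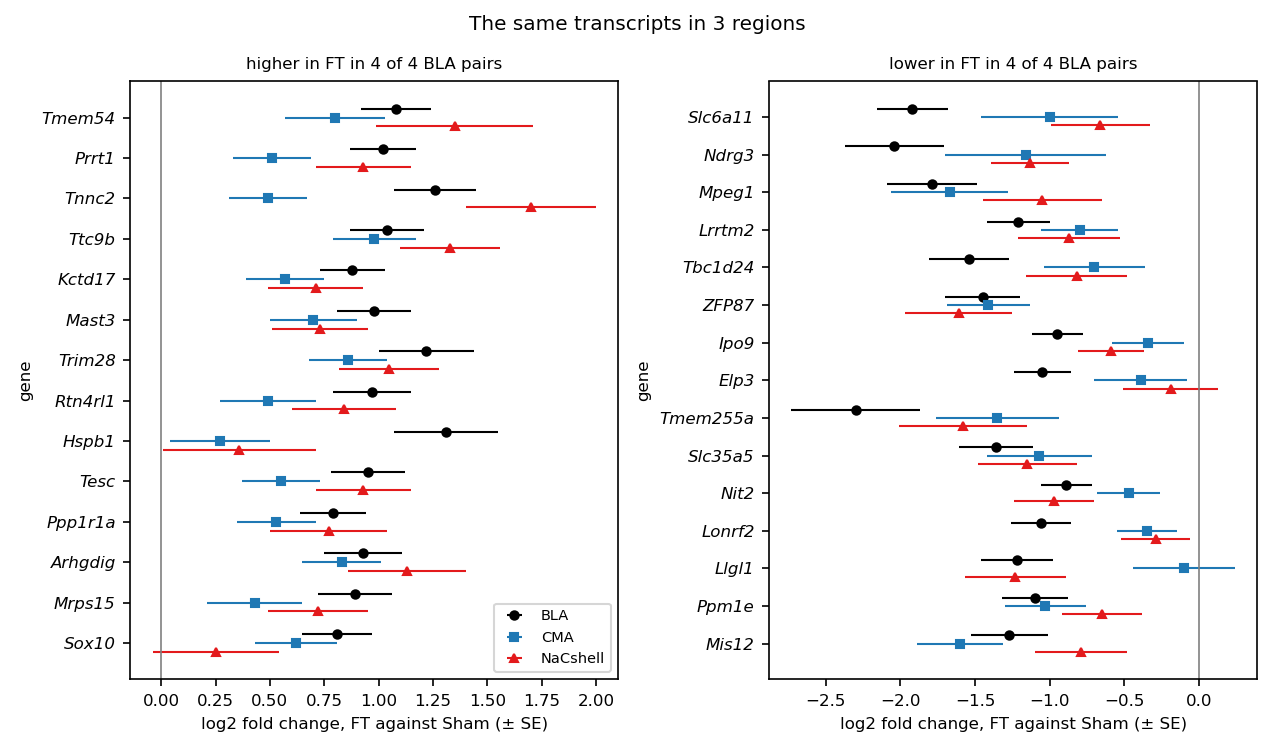
Log2 fold change of FT against Sham with its standard error in BLA (circles), CMA (squares) and NaCshell (triangles), from an edgeR fit of each region with 4 pairs, for 14 of the 15 higher (left) and the 15 lower (right) genes. All values share a sign across regions, and Hspb1 (1.31, 0.27 and 0.36) and Slc6a11 (-1.92, -1.0 and -0.66) lie further from 0 in BLA than in the other regions; the genes were chosen on their BLA values.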

How the data were processed

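RNA from pooled punches had been sequenced as paired 76 base reads from libraries made with a stranded total RNA kit. The authors deposited raw counts per Ensembl transcript, made per the labels with STAR, HTSeq and the rn5 genome, and the 5 summary lines of each file were dropped. Versions are not given in the sources used here. BLA counts were scaled by TMM, filtered by filterByExpr (minimum count 10, minimum total 15) and fitted in edgeR (version 4.0.16, R version 4.3.3), the replicate number being a block, as the study's methods pair the samples. Deviations of same-numbered FT and Sham samples from their group means correlated with r = 0.65, 0.83, 0.81 and 0.59 in pairs 1, 3, 4 and 5. Calls required an adjusted p (Benjamini-Hochberg) up to 0.1 and a log2 fold change of 0.32 in size. The standard error is the log2 fold change divided by the root of the F statistic. Pair ratios used log2 CPM with a prior count of 2. DESeq2 1.42.0 was the alternative tool. The fits were tested on simulated data. The members and gene lists were chosen with earlier results of these data known. Named were the 15 transcripts with a symbol and the smallest p in each direction with one sign in 4 pairs, the 2 smallest p per direction of each list (all members of lists of up to 6), 11 genes of interest and 4 transcripts without a symbol; further list members that DESeq2 called, Kcnj13 and the most abundant transcript were named after values were seen. Symbols came from the study's own list of recurrent transcripts (1844 matched). Some genes of these lists enter the counts and are not reported here by name. Region markers used TMM over all 196 libraries. Promoters are RefSeq's for GRCr8. Counting error alone limits transcripts with few counts, and p-values measure the spread between pools.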

Additional observations from a re-analysis of the deposited data

Results flagged for a closer look

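In groups of 4 libraries, a library was singled out by Dixon's test at 95%, from its gap to the next value as a share of the group's range, which chance gives in about 1 of 20 groups. Of 92 groups tested, 7 met this. In pair 3, Apoe stood at 13015 CPM in Sham and 17271 CPM in FT, Cds2 at 74.6 and 67.1 CPM, and Mast3 at 226 CPM in FT, where the other 3 libraries were at 268 to 269 CPM. The 50 most abundant transcripts took 70.0% of the counts of FT in the same pair. The remaining value was ENSRNOT00000027452 at 1.95 CPM in Sham of pair 1, against 0.669 to 0.730 CPM. The other regions had like shares for the 50 most abundant transcripts in libraries numbered 3, with a median of 67.8% against 28.5% to 35.2% for the other numbers.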

How the results depend on the processing

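The number of calls depended on the tool and the pairs. edgeR called 0 transcripts with all pairs, 0 to 2 without one pair (the 2 being Popdc2 and Angptl6, higher in FT, without pair 1, and Mat2a and Ndrg3 without pair 3), and 0 in its legacy form, without the block, with RLE size factors, without the low-count filter, at an adjusted p of 0.05 and with no fold threshold. DESeq2 with all pairs and the block, a planned setting, called 265. It called 0 without the block, and 337, 236, 12 and 6 without pairs 1, 3, 4 and 5. The DESeq2 settings without the block or without a pair were chosen after the data were seen. At an unadjusted p below 0.05 edgeR had 1835 transcripts, 241 without the replicate block and 1002 to 1871 without one pair, and DESeq2 had 360 without the block and 892 and 632 without pairs 4 and 5. The block changed no other call, except that 1 transcript, ENSRNOT00000027346, differed between BLA and CMA without it, and 4 differed from NaCshell with a treatment effect shared per replicate number. The pair correlations moved little with no TMM, another prior count or a mean of at least 50 counts, the pair of 1 and 3 most, from 0.24 to between 0.19 and 0.37. Of the 135 named transcripts tested, 6 changed sign in some setting, and none of these was called. Without the block these were PENK at 0.07 (0.05 in DESeq2), Hbb-b1 at -0.03 (-0.05 in DESeq2), MT-ATP8 at -0.33 (-0.34 in DESeq2) and Mrpl34 at 0.15 (0.12 in DESeq2). Without one pair edgeR gave PENK from -0.22 to 0.31, Hbb-b1 from -0.30 to 0.55, Ap2s1 from -0.05 to 0.40, MT-ATP8 from -0.53 to 0.50, Mrpl34 from -0.30 to 0.08 and Rora from -0.59 to 0.17. DESeq2 reversed PENK at 0.30 without pair 5, Hbb-b1 at -0.32 without pair 5, Ap2s1 at -0.06 without pair 5, MT-ATP8 at -0.18 without pair 4 and -0.54 without pair 5, Mrpl34 at 0.08 without pair 1 and 0.07 without pair 5 and Rora at 0.15 without pair 5. The causes were not tested.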
